A study of Mus musculus with 20 samples.

Results

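Transcripts of 10 circadian clock and clock output genes were followed in mouse cancer-associated fibroblasts (CAFs), the activated fibroblasts of the tumour stroma. The genes were Arntl, Clock, Per1, Per2, Cry1, Nr1d1, Nr1d2, Ciart, Dbp and Tef. They were selected by name on their transcript levels in the 4 groups of these same libraries, which were already known, out of the 32285 genes of the expression table. The levels and differences of these 10 genes are therefore given as a description, with no test, and every p-value belongs to other genes. All 10 were measured in each of the 20 libraries, at 1.53 TPM or more (TPM is a transcript level scaled for gene length and for the total of the library), and all 10 were among the 12350 genes that reached 1 TPM in at least 5 libraries.

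The study asked how pancreatic cancer CAFs respond to glutamine shortage and to a block of macropinocytosis, the bulk uptake of extracellular fluid. Immortalised primary murine CAFs were kept for 32 h in 4 conditions with 5 libraries each. At 0.2 mM glutamine the cells received EIPA, an amiloride derivative used as an inhibitor of macropinocytosis, at 25 uM, or DMSO vehicle. At 4 mM glutamine they received 25 pg/mL of interleukin-1 alpha (IL-1a) or no cytokine, and DMSO was present in all 4 groups. The dose of EIPA is that of the sample titles. The protocol text gives the same figure in mM. The number of lines or animals behind the cells is not in the labels, nor is it said that replicates were grown separately. Each p-value thus reflects spread among these libraries, which may be technical. Cells were taken at a single time with no rhythm followed, so a shifted phase and a changed level of the clock cannot be told apart. Nor can a lower level per cell be told apart from fewer cells holding the transcript, since RNA was pooled over the culture.

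The mammalian clock is a feedback loop of transcription. ARNTL (BMAL1) and CLOCK pair up and bind E-boxes, where they drive the Per, Cry, Nr1d, Dbp, Tef and Ciart genes, and the PER and CRY proteins return to repress that pair. REV-ERB alpha and beta, made by Nr1d1 and Nr1d2, repress Arntl through ROR elements, while DBP and TEF carry the rhythm to D-boxes of further genes, and fibroblasts in culture are a classic model in which serum or hormones reset this loop.

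The promoters are shown as a description of the clock elements they hold, and no link between elements and levels was tested. Windows from 250 bases before to 50 bases after a start site were taken from RefSeq (GRCm38.p6). There were 14 windows for 9 of the 10 genes and none for Per2. Both strands were searched for the E-box CACGTG, the E-prime box CACGTT, the ROR element TAGGTCA, the D-box in the forms TTATGTAA and TTACGTAA, and the cAMP response element as TGACGTCA and as TGACGT. The short cAMP form lies inside the long one, and both E-box forms share the letters CACGT. In the lines that follow, capitals mark the elements found. The Ciart, Cry1 and Tef lines hold the 250 bases before the start site. The Arntl line holds a stretch of 30 bases from within the 50 bases after it.
Ciart, chr3:95882229-95882478, minus strand: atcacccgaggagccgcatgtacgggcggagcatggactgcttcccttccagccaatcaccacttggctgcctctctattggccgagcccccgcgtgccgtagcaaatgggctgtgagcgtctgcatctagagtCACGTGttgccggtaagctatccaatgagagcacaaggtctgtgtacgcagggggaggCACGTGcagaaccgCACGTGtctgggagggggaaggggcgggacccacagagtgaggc
Cry1, chr10:85185055-85185304, minus strand: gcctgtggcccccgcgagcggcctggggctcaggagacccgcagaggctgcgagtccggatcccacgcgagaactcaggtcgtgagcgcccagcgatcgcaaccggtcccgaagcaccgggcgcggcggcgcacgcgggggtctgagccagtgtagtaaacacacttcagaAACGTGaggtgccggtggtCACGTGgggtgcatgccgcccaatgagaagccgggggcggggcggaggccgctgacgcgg
Tef, chr15:81811164-81811413, plus strand: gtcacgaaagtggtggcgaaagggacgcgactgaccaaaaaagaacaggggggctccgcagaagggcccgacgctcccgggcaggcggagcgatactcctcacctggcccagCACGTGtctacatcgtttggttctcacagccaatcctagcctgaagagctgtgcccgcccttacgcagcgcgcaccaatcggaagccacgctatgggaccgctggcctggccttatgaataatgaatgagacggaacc
Arntl, chr7:113207530-113207559, plus strand: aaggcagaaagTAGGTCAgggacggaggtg
The Ciart window held 3 E-boxes, at -116, -58 and -44 from the start site. Among the 32851 promoter windows of the same length, 7.15% held an E-box and 29 windows held 3 or more. Cry1 had an E-box at -60 and an E-prime box at -79, which reads AACGTG on the printed strand, and 4.68% of all windows held that element. Tef had an E-box at -138 in the window shown and at -127 in another window, and Per1 had an E-box at -166. Nr1d1 had an E-prime box at -28. The ROR element of Arntl began at +30, and 2.61% of all windows held such an element. Per1 also held the short cAMP form at -132 in its other window, as did 7.51% of all windows. In the Nr1d1 window and in this other Per1 window, the 50 bases after the start site were not found in the gene's transcripts. Positions there are less sure. The D-box, present in 1.06% of all windows, and the long cAMP form, present in 1.79%, were in none of the 14 windows. An E-box was found in 5 of the 14 windows, which belonged to 4 of the 9 genes. The windows of Clock, Nr1d2 and Dbp held none of the elements searched. These matches describe letters, not binding.

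A few features of the libraries touch the clock genes. Of 12 fibroblast markers, 10 averaged 1 TPM or more, while Lum and Fap averaged 0.1 and 0.0505 TPM. The summed level of the 12 ran from 2228 to 2526 TPM with EIPA, 3537 to 4225 in 0.2 mM vehicle, 8019 to 10330 with IL-1a and 9530 to 10600 in 4 mM vehicle. Of 6 epithelial markers, 3 averaged 1 TPM or more (Krt7, Krt18 and Krt19), with sums of 88.8 to 121, 133 to 207, 169 to 365 and 189 to 402 TPM in the same order. Krt19 averaged 176 TPM, while Epcam averaged 0.103 TPM. No leukocyte marker of 5, no mural marker of 4 and no Schwann cell marker of 4 averaged 1 TPM, and Sox10 was listed at 0 throughout. Of 4 endothelial markers only Kdr passed that level, at a mean of 4.95 TPM, while Pecam1, Cdh5 and Tek averaged 0.0775, 0.008 and 0.247 TPM. The endothelial sums, mostly Kdr by these means, were higher at low glutamine, like most of the clock genes. They were 6.69 to 9.26 TPM with EIPA and 6.33 to 10.32 in its vehicle. At 4 mM they were 1.9 to 3.54 TPM with IL-1a and 2.9 to 4.04 in its vehicle. The share of TPM on mitochondrially encoded genes was 5.69 ± 0.63% with EIPA, 8.87 ± 0.28% in 0.2 mM vehicle, 10.0 ± 0.51% with IL-1a and 10.4 ± 1.17% in 4 mM vehicle (SD, n = 5). The part of these marker and mitochondrial differences in the clock differences was not tested. Replicate 5 of 0.2 mM vehicle stood apart from its group, with a median gene 0.158 from the other replicates on the log2 scale against 0.0672 to 0.0890 for those 4. Earlier results had set apart 3 of the 4 mM libraries, namely replicates 1 and 5 with IL-1a and replicate 5 of vehicle, in which Ccn1, a matricellular target of YAP, had 201, 235 and 231 TPM and the remaining 7 had 379 to 599 TPM. Where a value moved much without them, both values are given.

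The plot of TPM by library shows the 10 genes in 4 groups. The 4 mM groups lay low and close together, and most genes lay higher in both 0.2 mM groups. Ciart headed the order at 0.2 mM and stood in the lower part of it at 4 mM. With EIPA, Ciart averaged 120.8 ± 10.96 TPM (SD, n = 5) and lay above every other member in all libraries. Tef and Nr1d2 came next and overlapped, followed by Cry1 and Clock, which overlapped, then by Per1, Nr1d1 and Arntl, each overlapping its neighbour, and last by Dbp and Per2, each below its upper neighbour in all 5 libraries. In 0.2 mM vehicle Ciart and Cry1 led and overlapped. Tef, Nr1d2, Clock, Nr1d1 and Per1 came next, and neighbours among these overlapped. The overlaps of Ciart with Cry1, of Tef with Nr1d2 and of Clock with Nr1d1 came from replicate 5 alone. Arntl followed, below Per1 in all libraries, and Dbp and Per2 at the bottom overlapped. In 4 mM vehicle Tef and Clock led, at 21.9 ± 3.51 and 20.5 ± 0.309 TPM, and overlapped. Nr1d2 and Cry1 came next and overlapped, then Per1, Ciart, Arntl and Nr1d1, each overlapping its neighbour, then Dbp and Per2. With IL-1a the order was the same but for Arntl and Ciart, which changed places and overlapped.

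**Figure D1:**
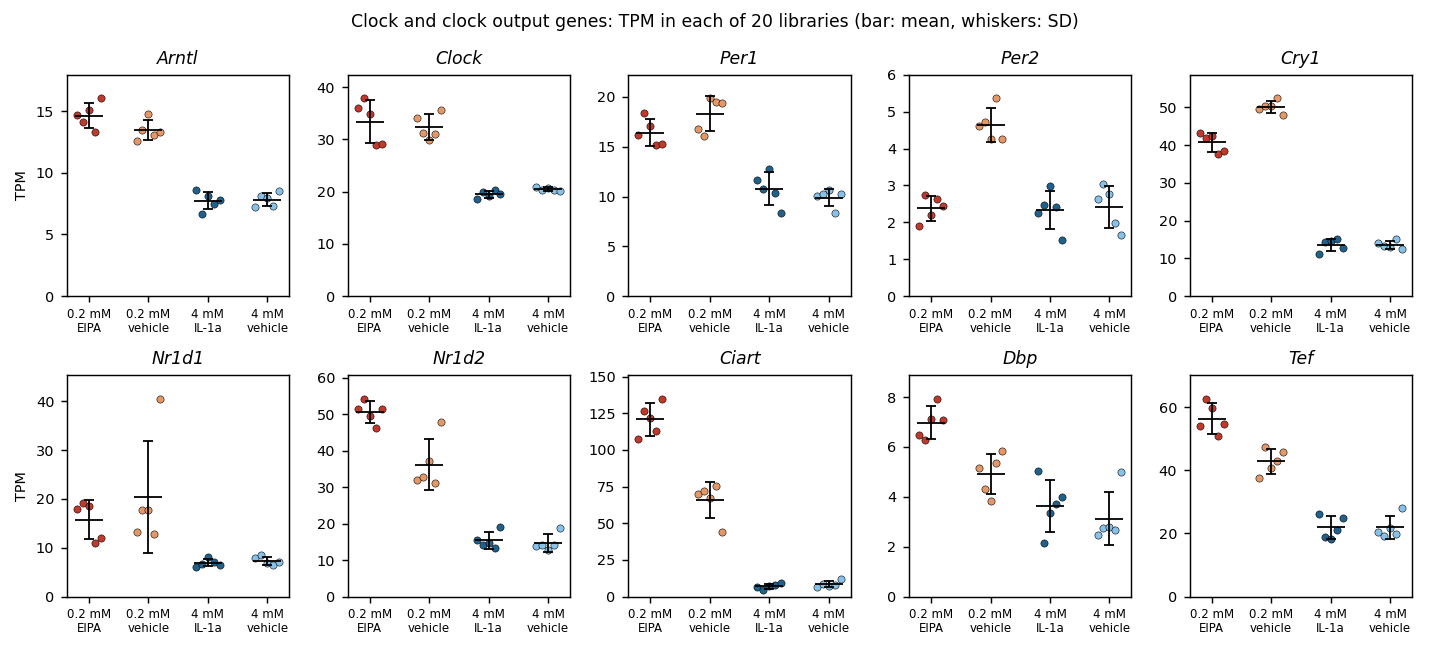
TPM (linear axis from 0) of the 10 genes in 0.2 mM EIPA, 0.2 mM vehicle, 4 mM IL-1a and 4 mM vehicle; points are the 5 libraries of a group, bars the mean and whiskers the SD. Ciart sits at 44.35 to 75.08 TPM in 0.2 mM vehicle and at 6.74 to 12.07 TPM in 4 mM vehicle, and Nr1d1 shows a single library at 40.57 TPM.

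With vehicle alone, 9 of the 10 genes were higher in all 5 libraries at 0.2 mM glutamine than in any at 4 mM, none was lower in all, and Dbp overlapped. Of all genes tested, 37.2% were higher and 22.7% lower without overlap in this contrast. Since the genes were picked with these values known, nothing is read from that count. The median gene was itself 0.14 higher at 0.2 mM on the log2(TPM + 1) scale, so glutamine differences are given relative to it. The p-values printed beside such differences of other genes test the difference before that subtraction. The relative differences ran from 0.40 for Dbp to 2.68 for Ciart, with a median of 0.75 over the 10 genes against 0 over all genes tested by construction. The glutamine contrast and the EIPA contrast share the 0.2 mM vehicle libraries, and the glutamine and IL-1a contrasts share the 4 mM vehicle libraries, so their values are set side by side and not correlated.

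**Figure D2:**
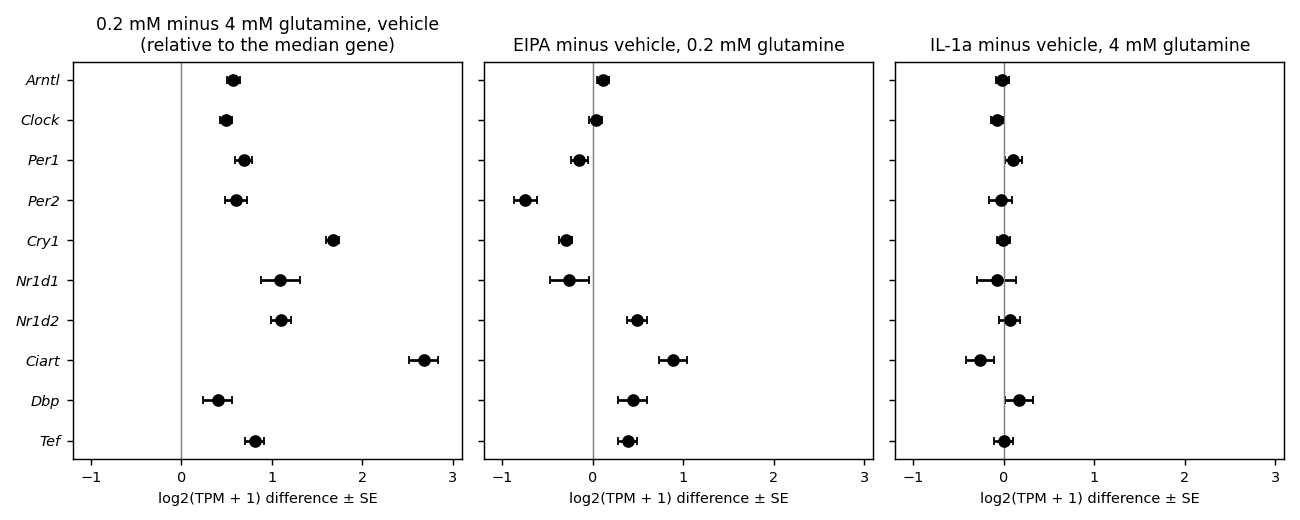
Difference in log2(TPM + 1) with its standard error from the limma model for each of the 10 genes, in the glutamine contrast (relative to the median gene), the EIPA contrast and the IL-1a contrast. All 10 points lie right of 0 for glutamine, they spread to both sides for EIPA from -0.74 (Per2) to 0.89 (Ciart), and those for IL-1a lie between -0.26 and 0.17.

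Arntl and Clock, the activating pair, were higher at low glutamine and differed little with either agent. Arntl (ENSMUSG00000055116, mm10 chr7:113207465-113314126, plus strand) was at 12.59, 13.48, 14.76, 13.09 and 13.27 TPM in 0.2 mM vehicle and at 7.22, 8.14, 7.98, 7.32 and 8.49 TPM in 4 mM vehicle. The groups did not overlap, and the difference was 0.57 ± 0.07 (SE) relative to the median gene. With EIPA, Arntl ran from 13.29 to 16.03 TPM, overlapping its vehicle, with a difference of 0.11 ± 0.07. Clock (chr5:76209868-76304792, minus strand) averaged 32.4 ± 2.42 TPM in 0.2 mM vehicle and 20.5 ± 0.309 in 4 mM vehicle (SD, n = 5), a relative difference of 0.49 ± 0.07. Its 4 mM vehicle libraries were the most alike of any member in any group by SD against the mean, from 20.22 to 20.93 TPM. EIPA left Clock overlapping its vehicle, at 28.87 to 37.86 against 29.87 to 35.71 TPM.

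Of the PER and CRY genes among the 10, Cry1 differed most with glutamine and Per2 most with EIPA. Cry1 (ENSMUSG00000020038, chr10:85131700-85185064, minus strand), whose product is the strong repressor of the loop, was at 49.60, 50.43, 50.33, 52.36 and 47.95 TPM in 0.2 mM vehicle. In 4 mM vehicle it was at 14.07, 13.33, 13.06, 15.15 and 12.49 TPM, and with EIPA at 43.05, 41.89, 42.50, 37.58 and 38.38 TPM. Every 0.2 mM vehicle library lay above every EIPA library, and every EIPA library far above every 4 mM library. Mean Cry1 was 3.68 times as high at low as at high glutamine, with a relative log2 difference of 1.67 ± 0.07, and EIPA against vehicle gave -0.30 ± 0.07.

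Per2 (ENSMUSG00000055866, chr1:91415982-91459324, minus strand), a partner of the CRY proteins and also an early target of cAMP and glucocorticoid signals, had the lowest mean of the 10 in each group. It was at 4.61, 4.71, 4.25, 5.36 and 4.27 TPM in 0.2 mM vehicle and at 2.62, 3.04, 2.76, 1.99 and 1.66 TPM in 4 mM vehicle. With EIPA it was at 1.89, 2.74, 2.19, 2.62 and 2.45 TPM. The EIPA libraries all lay under their vehicle and inside the range spanned by the 4 mM groups. The relative difference for glutamine was 0.60 ± 0.12, and that for EIPA was -0.74 ± 0.12, or 0.512 times the vehicle mean. The log2(TPM + 1) scale understates differences at such low levels. Per1 (chr11:69095217-69109960, plus strand), the other PER gene of the set, did not show that difference with EIPA, at 15.16 to 18.39 against 16.05 to 19.87 TPM in vehicle (-0.15 ± 0.09). For glutamine Per1 had a relative difference of 0.69 ± 0.09. The ratio of Per2 to Per1 was 0.145 ± 0.023 with EIPA and 0.256 ± 0.036 in its vehicle (SD, n = 5), and 0.215 ± 0.025 and 0.244 ± 0.050 with IL-1a and in 4 mM vehicle.

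Nr1d1 and Nr1d2, which encode the REV-ERB receptors for haem, were both higher at low glutamine and parted with EIPA. Nr1d1 (ENSMUSG00000020889, chr11:98767932-98775333, minus strand) was at 13.19, 17.75, 17.71, 12.73 and 40.57 TPM in 0.2 mM vehicle and at 7.94, 8.42, 6.86, 6.47 and 7.13 TPM in 4 mM vehicle. Replicate 5 of 0.2 mM vehicle held more than any other library. The relative difference was 1.09 ± 0.22 with that library and 0.83 without it. With EIPA, Nr1d1 was at 17.93, 19.27, 18.61, 10.91 and 12.01 TPM, with 3 libraries just above vehicle replicates 1 to 4 and 2 libraries just below them. The difference for EIPA was -0.26 ± 0.22. It was -0.14 without EIPA replicate 4 and turned to 0.02 ± 0.15 without replicate 5 of the vehicle. The end of Nr1d1 shares 263 exonic bases, 8.55% of its exonic length, with Thra on the opposite strand (GENCODE M21), and whether the counting used strand is not given in the sources used here. Thra, the thyroid hormone receptor alpha gene, fell at low glutamine (relative log2 difference -0.72, limma adjusted p = 6.5e-05), the direction opposite to Nr1d1.

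Nr1d2 (ENSMUSG00000021775, chr14:18204054-18239127, minus strand) was at 31.96, 32.65, 37.09, 31.00 and 47.84 TPM in 0.2 mM vehicle and at 13.73, 14.04, 12.76, 14.10 and 18.80 TPM in 4 mM vehicle. With EIPA it was at 51.49, 54.25, 49.58, 46.21 and 51.51 TPM. The EIPA libraries lay above 4 of the 5 vehicle libraries, and replicate 5 of the vehicle reached into their range. The glutamine difference was 1.10 ± 0.11 relative to the median gene, and EIPA against vehicle gave 0.49 ± 0.11, or 0.60 without that replicate. The ratio of Nr1d2 to Nr1d1 was 3.38 ± 0.81 with EIPA, 1.99 ± 0.52 in 0.2 mM vehicle, 2.25 ± 0.47 with IL-1a and 2.02 ± 0.40 in 4 mM vehicle (SD, n = 5).

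Ciart, whose product CHRONO represses the CLOCK and BMAL1 pair, had the widest range of the 10 genes. Ciart (ENSMUSG00000038550, chr3:95878503-95882251, minus strand) was at 69.72, 72.03, 67.32, 75.08 and 44.35 TPM in 0.2 mM vehicle and at 6.74, 8.38, 7.39, 7.89 and 12.07 TPM in 4 mM vehicle. With EIPA it was at 107.45, 126.65, 121.99, 112.83 and 135.05 TPM. The 3 groups did not overlap, and in replicate 5 of each vehicle group Ciart lay toward the other group. Mean Ciart was 7.74 times as high at low as at high glutamine. The relative log2 difference of 2.68 ± 0.16 ranked 10 from the top among the 12350 genes, where Cry1 ranked 55. EIPA against vehicle gave 0.89 ± 0.16, or 0.75 without replicate 5 of the vehicle. The ratio of Ciart to Arntl was 8.26 ± 0.60 with EIPA, 4.90 ± 0.98 in 0.2 mM vehicle, 0.895 ± 0.21 with IL-1a and 1.08 ± 0.20 in 4 mM vehicle.

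The output factors Dbp and Tef, PAR domain leucine zipper proteins that act on D-boxes, were higher with EIPA than in vehicle without overlap. Tef (ENSMUSG00000022389, chr15:81802421-81826863, plus strand) was at 53.93, 62.72, 59.82, 50.87 and 54.53 TPM with EIPA and at 37.42, 47.23, 40.74, 43.05 and 45.77 TPM in its vehicle, a difference of 0.39 ± 0.10. In 4 mM vehicle Tef was at 20.59, 19.32, 21.63, 19.95 and 27.99 TPM. The relative glutamine difference of Tef was 0.81 ± 0.10, and it was 0.89 without the 3 libraries of the 4 mM groups that stand apart. Dbp (ENSMUSG00000059824, chr7:45705088-45710203, plus strand) was at 6.48, 6.29, 7.11, 7.94 and 7.07 TPM with EIPA and at 5.16, 4.32, 3.85, 5.35 and 5.84 TPM in its vehicle, a difference of 0.44 ± 0.16. In 4 mM vehicle it was at 2.47, 2.73, 2.77 and 2.68 TPM in replicates 1 to 4 and at 5.0 TPM in replicate 5, the sole library that reached the 0.2 mM range. The relative glutamine difference of Dbp was 0.40 ± 0.16, and 0.54 without the 3 libraries. Dbp shares 539 exonic bases, 18.0% of its exonic length, with Sphk2 on the opposite strand. Sphk2, a sphingosine kinase gene named after its values were seen, rose at low glutamine (relative difference 0.56, limma adjusted p = 3.8e-09), while with EIPA its difference was 0.05 (limma adjusted p = 0.59).

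The other genes of the clock were taken from 4 lists with 45 genes, of which 40 were tested with limma over all 12350 genes. At low against high glutamine 23 of the 40 rose, 8 fell and 9 did not pass, and their median relative difference was 0.20. Of all genes tested, 45.4% rose and 27.9% fell. With TPM rescaled by median-of-ratios, 4438 genes were higher and 4382 lower (50.3% of calls higher, 61.9% as deposited) and the median gene at 0.01, and among the 40 the counts were 22 and 10. All 5 tested genes of the core loop rose. Among them Rora would not have passed the level filter without the 0.2 mM groups, so the filter favoured its rise. Cry2, the second cryptochrome, averaged 16.9 ± 1.48 TPM at 0.2 mM and 6.54 ± 0.470 at 4 mM, a relative difference of 1.11 ± 0.08 (limma adjusted p = 1.7e-11). Rora, an activator of Arntl at ROR elements, averaged 4.48 ± 0.501 against 0.878 ± 0.186 TPM, a relative difference of 1.41 ± 0.12. Per3 had a relative difference of 0.50 (adjusted p = 1.1e-04) and Bhlhe40, which encodes the E-box repressor DEC1, of 0.55 (adjusted p = 2.2e-09). Npas2, which can stand in for CLOCK, stayed at or under 0.55 TPM and was not tested, nor was Rorb.

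Among other outputs of the clock, 3 of 9 tested genes rose at low glutamine and 1 fell. Lonrf3, which is among the 3 and lay at 0.13 to 0.69 TPM in 4 mM vehicle, also passed the level filter through the 0.2 mM groups alone. Nfil3, the repressor that competes with DBP and TEF at D-boxes, averaged 105.7 ± 5.65 TPM against 46.8 ± 2.02 at 4 mM (1.02 ± 0.05, limma adjusted p = 1.9e-13). Klf10, a zinc finger factor, had a relative difference of 1.19 ± 0.09 (adjusted p = 6.2e-11). Hlf, the PAR factor related to DBP and TEF, did not exceed 1.01 TPM in any library and was not tested. Of 17 genes for enzymes and cofactors that act on clock proteins, 9 rose and 4 fell. Ddb1, an adaptor of CUL4 ubiquitin ligases, fell (-0.74 ± 0.04, adjusted p = 3.9e-11), and Gsk3b, a kinase of REV-ERB and CRY proteins, rose (0.47 ± 0.05, adjusted p = 1.5e-09). Of 9 genes of resetting inputs, 6 rose and 3 fell. Sik1, a kinase induced by cAMP, fell by 1.19 ± 0.11 (adjusted p = 2.4e-08), and Fkbp5, a glucocorticoid target, fell by 1.02 ± 0.07 (adjusted p = 5.6e-10).

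**Figure D3:**
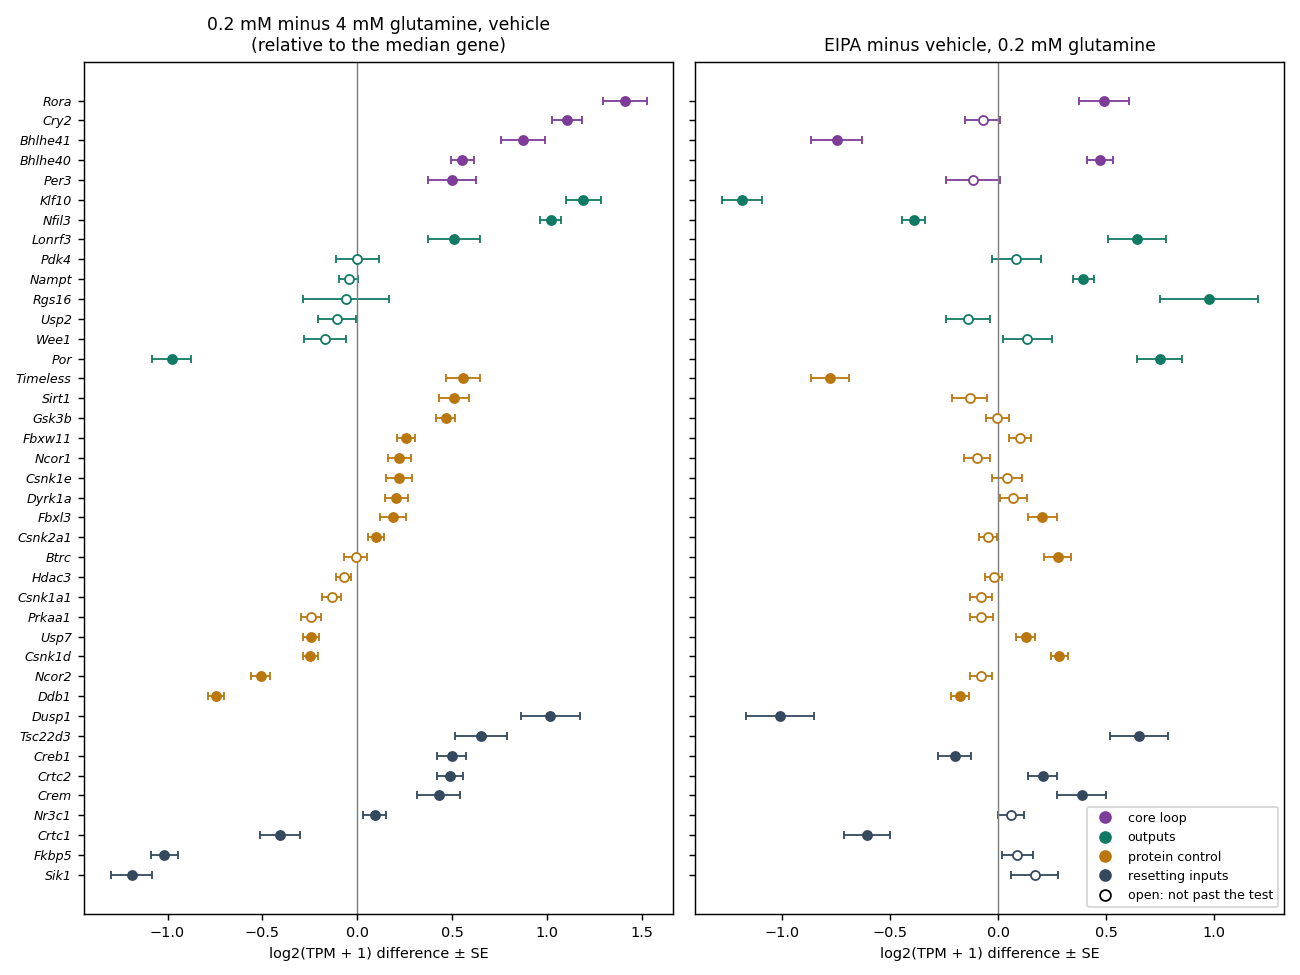
Difference in log2(TPM + 1) with its standard error for the 40 tested clock genes outside the 10, coloured by list, for glutamine (relative to the median gene) and EIPA; filled points passed limma's adjusted p of 0.05 on the difference before the median gene is subtracted. All 5 genes of the core loop lie right of 0 for glutamine, whereas for EIPA Rora and Bhlhe40 lie right and Bhlhe41 lies left at -0.75.

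With EIPA at low glutamine the 10 genes moved apart from each other. Ciart, Tef and Dbp were higher and Cry1 and Per2 were lower than vehicle in all libraries, and the other 5 overlapped. Of all genes tested, 20% were higher and 14.7% lower without overlap, and nothing is read from the count of the 10, whose values were known. Their median difference was 0.07, against 0.02 over all genes tested. Among the 40 other clock genes 13 rose, 8 fell and 19 did not pass, where 27.4% of all genes tested rose and 21.1% fell, and their median difference was 0.05. With TPM rescaled without the mitochondrially encoded genes the counts of the 40 were 10 and 10, so 50% of calls were higher in place of 61.9%. Over all genes tested the same rescaling turned 3383 higher and 2603 lower calls (56.5% higher) into 2775 and 3131 (47.0%), and median-of-ratios scaling gave 2902 and 2970 (49.4%). In the core loop Bhlhe40 and Rora rose, by 0.47 ± 0.06 (limma adjusted p = 2.4e-06) and 0.49 ± 0.12 (adjusted p = 0.0016). Bhlhe41, which encodes the related repressor DEC2, fell by 0.75 ± 0.12 (adjusted p = 2.3e-05). Cry2 and Per3 did not pass, at -0.07 (adjusted p = 0.48) and -0.12 (adjusted p = 0.46).

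Other outputs and inputs of the clock also went in both directions with EIPA. Of 9 outputs 4 rose and 2 fell. Lonrf3, among the 4 and so among the risers over all 4 lists, would not have passed the level filter without the EIPA libraries. It lay at 1.7 to 2.91 TPM with EIPA and at 0.67 to 1.66 TPM in its vehicle, so the filter favoured a rise. Klf10 averaged 26.8 ± 2.24 TPM with EIPA and 62.7 ± 11.1 in vehicle, and fell by 1.18 ± 0.09 on the log2 scale (limma adjusted p = 2.3e-09). Nfil3 fell by 0.39, from 105.7 to 80.4 TPM (adjusted p = 5.7e-06). Nampt, whose product makes NAD from nicotinamide, rose by 0.39 ± 0.05 (adjusted p = 1.7e-06). Of the 17 genes that act on clock proteins 4 rose and 2 fell, with Timeless, a replication fork factor related to the fly clock gene, at -0.78 ± 0.09 (adjusted p = 5.5e-07) and Csnk1d, a kinase of PER proteins, at 0.28 ± 0.04 (adjusted p = 8.6e-06). Of the 9 resetting inputs 3 rose and 3 fell. Dusp1, a phosphatase induced by serum and glucocorticoids, fell by 1.01 ± 0.16 (adjusted p = 2.3e-05), and Crtc1, a coactivator of CREB, fell by 0.61 ± 0.11 (adjusted p = 8.2e-05). The 3 that rose, named after their values were seen, were Tsc22d3, Crem and Crtc2. Their differences were 0.65, 0.39 and 0.21 (adjusted p = 5.1e-04, 0.0082 and 0.017).

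With IL-1a at high glutamine none of the 40 other clock genes passed the test. All 10 genes overlapped their vehicle, where 0.777% of all genes tested were higher and 0.599% lower without overlap. The differences ran from -0.26 ± 0.16 for Ciart to 0.17 ± 0.16 for Dbp, with a median of -0.01 against 0.01 over all genes tested. Both ends moved with single libraries. Ciart was at -0.13 without IL-1a replicate 2 and at -0.14 without vehicle replicate 5. Dbp was at 0.07 without IL-1a replicate 1, at 0.30 without IL-1a replicate 2 and at 0.31 without vehicle replicate 5. Without the 3 libraries that stand apart the differences were -0.23 for Ciart and 0.13 for Dbp. Per1, at 0.10 with all libraries, ran from 0.05 without IL-1a replicate 3 or vehicle replicate 4 to 0.18 without IL-1a replicate 5. Ciart was at 6.28, 4.41, 7.00, 8.06 and 9.0 TPM with IL-1a, and Cry1 at 11.20, 14.41, 14.64, 15.05 and 12.67 TPM. Of the 40 other clock genes Hdac3, a corepressor partner of REV-ERB named after its values were seen, was higher in all libraries, at 88.32 to 93.1 against 83.22 to 87.4 TPM. By limma 1 of the 40 had an unadjusted p under 0.05, and the smallest adjusted p was 0.48, that of Nfil3 (0.16). Over all genes tested 0.259% rose and 0.0243% fell.

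The 3 libraries of the 4 mM groups that stand apart also differed from the other 7 in several of the 10 genes, across both treatments. There Tef had 26.21, 25.02 and 27.99 TPM, and 18.19 to 21.63 TPM elsewhere at 4 mM. Dbp was at 5.02, 3.99 and 5.0 TPM against 2.14 to 3.70, and Nr1d2 at 15.59, 19.10 and 18.80 against 12.76 to 14.73. In each of these genes the 3 libraries lay above all others at 4 mM. Cry1 lay below them, at 11.20, 12.67 and 12.49 TPM against 13.06 to 15.15. Dcn, the gene for decorin, was at 380, 371 and 398 TPM in the same libraries against 120 to 263. These libraries were set apart by measured values, so the contrast is a description.

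Covariation inside the groups was described by subtracting the group means from log2(TPM + 1) over the 20 libraries. Libraries share their composition, since TPM sums to a fixed total, so the coefficients are given with no p. Of 45 pairs 24 had a positive Pearson r, 4 were over 0.5 and 4 under -0.5. Clock and Nr1d1 had r = 0.64 (Spearman rho 0.62) and kept 0.63 without the 3 libraries. Dbp and Tef went from 0.63 to -0.01 without them, and Nr1d2 and Tef from 0.60 to 0.23. Nr1d1 and Nr1d2 had 0.57, which became 0.87 without the 3 libraries and 0.17 without replicate 5 of 0.2 mM vehicle, a setting chosen after seeing the data. The negative pairs were Per2 with Nr1d2 (-0.65), Cry1 with Dbp (-0.63), Per2 with Tef (-0.54) and Cry1 with Tef (-0.53). Without the 3 libraries they were -0.28, -0.19, -0.01 and 0.23, so these relations rest on those libraries. Other pairs passed -0.5 once the 3 libraries were left out. Nr1d1 and Ciart went from -0.45 to -0.54, and were at -0.05 without replicate 5 of 0.2 mM vehicle. Nr1d2 and Ciart went from 0.08 to -0.58, and were at 0.61 without that replicate.

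**Figure D4:**
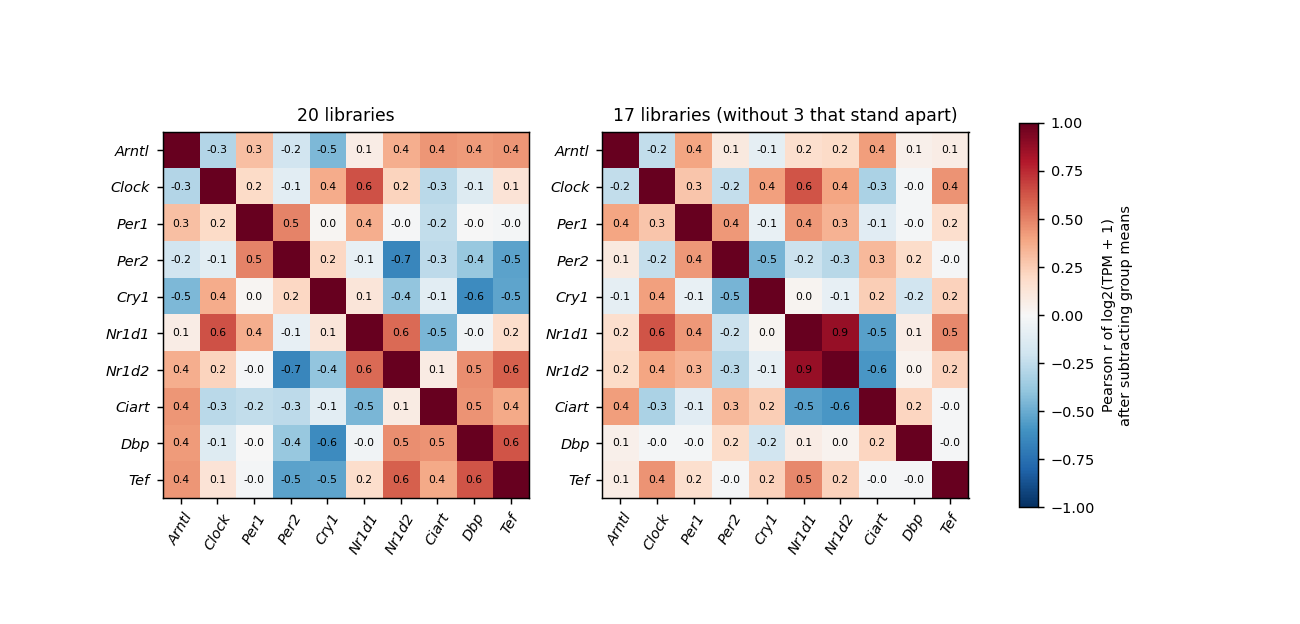
Pearson r of log2(TPM + 1) for each pair of the 10 genes after subtracting group means, over 20 libraries (left) and over 17 without the 3 that stand apart (right), on a colour scale from -1 to 1. The Dbp and Tef cell goes from 0.63 to -0.01, while the Clock and Nr1d1 cell is 0.64 and 0.63.

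Among genes tested with a mean of at least 5 TPM, those most like each member inside the groups were listed by the same coefficient over 20 libraries. Each is picked as the highest of many coefficients, which raises its size, and shared control was not tested. For Ciart they were Chac1 (0.92), Eif3c (0.89) and Cars (0.89). For Cry1 they were Srm (0.93), Tma16 (0.92) and Enoph1 (0.91), and for Nr1d2 they were Fnip1 (0.92), Virma (0.91) and Pi4k2b (0.91). Tef was closest to Vps13d (0.91), Bcl2l11 (0.89) and Usp53 (0.89), and Dbp to Ddt (0.89) and Spsb1 (0.88). Per2 was closest to Hsf1 (0.87), Fhl3 (0.86) and Dvl1 (0.85), Per1 to Irak1 (0.81), Brd8 (0.75) and Vps16 (0.75), and Clock to Rbm27 (0.88), Arl6ip5 (0.85) and Etv3 (0.85). Arntl was closest to Phospho1 (0.82), Gadd45a (0.78) and Uros (0.77). For Nr1d1 the likeness to Smg8 (0.89) and Ahcyl2 (0.88) rested in part on replicate 5 of 0.2 mM vehicle, and the coefficients were 0.68 and 0.78 without it. No clock gene of the 10 or of the 4 lists was among these genes. Without the 3 libraries of the 4 mM groups, a setting also chosen after seeing the data, the largest falls were those of Tef, to 0.71, 0.71 and 0.67, and of Dbp, to 0.71 and 0.75. Cry1 then had 0.81, 0.80 and 0.79, and Ciart 0.90, 0.85 and 0.83.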

How the data were processed

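PolyA RNA of 20 libraries was sequenced in read pairs, per the labels' protocols. The authors deposited TPM per gene, made with RSEM on mm10, per the submitters' processing notes. Neither aligner nor annotation nor strand setting is given in the sources used here. TPM keeps no depth, so the depth of each library is unknown and no counting interval is given. Groups came from the sample titles. From the TPM, log2(TPM + 1) was fitted with limma 3.58.1 in R 4.3.3 (mean-variance trend, all 4 groups in 1 model, no block) on the 12350 of 32285 genes that reached 1 TPM in 5 or more libraries, with Benjamini-Hochberg adjustment over all of them and a threshold of 0.05. The fit was tested on simulated data. Exon overlaps are from GENCODE M21 on mm10, and promoters from RefSeq.

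The 10 genes and the 4 lists were chosen with earlier results of these data known. The text names the 10 genes, 7 further clock genes, Thra as the antisense neighbour of Nr1d1, in each list and contrast the 2 passing genes with the smallest p, and for each of the 10 genes its 3 nearest genes. Some genes that this rule picks are not reported here. Alternatives were a pseudocount of 0.1 TPM, other level filters, other scalings, only the groups compared, a replicate block and libraries left out.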

Additional observations from a re-analysis of the deposited data

Results flagged for a closer look

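In groups of 5 libraries, a library whose gap to the nearest other exceeded 0.71 of the group's range was set aside for a closer look. Chance gives such a gap in about 1 in 20 groups, and 68 groups (17 genes in 4 groups) were examined, of which 11 had one.

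Replicate 5 of 0.2 mM vehicle gave 4 of these. Nr1d1 was highest there at 40.57 TPM (others 12.73 to 17.75), Per3 at 6.23 TPM (others 3.77 to 4.40) and Hlf at 0.84 TPM (others 0.46 to 0.52), and Ciart was lowest at 44.35 TPM (others 67.32 to 75.08). Replicate 5 of 4 mM vehicle also gave 4. It was highest for Nr1d2 at 18.80 TPM (others 12.76 to 14.10), Dbp at 5.0 TPM (others 2.47 to 2.77), Tef at 27.99 TPM (others 19.32 to 21.63) and Hlf at 0.97 TPM (others 0.38 to 0.51).

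The other 3 were in different libraries. Per1 was lowest in replicate 4 of 4 mM vehicle at 8.37 TPM (others 10.05 to 10.63). Cry2 was highest in replicate 2 with EIPA at 18.16 TPM (others 15.10 to 15.87). Npas2 was highest in replicate 1 with IL-1a at 0.37 TPM (others 0.02 to 0.07), under the 1 TPM needed for a test.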

How the results depend on the processing

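Of the named genes followed over the alternatives, none that passed the test lost its call or reversed its direction where it was kept. Lonrf3, Tsc22d3, Crem and Crtc2 were not followed with EIPA. The filter at a mean of at least 5 TPM left out Rora, Bhlhe41 and Per3, and also Per2 and Dbp of the 10 genes. For glutamine the 10 genes kept a positive relative difference of at least 0.346 in those of the 18 alternatives that kept them. Small differences did change sign, those of Clock and Nr1d1 with EIPA and of 5 of the 10 genes with IL-1a. The difference of Per2 with EIPA was -0.94 with a pseudocount of 0.1 TPM. The count of genes that rose with IL-1a, 32, was 18 with only the groups compared. The 3 that fell became 1 with only the groups compared, 7 with no level filter and 8 with the replicate block, and ranged from 1 to 6 with 1 library left out (1 without IL-1a replicate 1 or vehicle replicate 1, 2 or 3, and 6 without vehicle replicate 5). The cause was not tested. Same-numbered libraries did not deviate together throughout (r from -0.35 to 0.67, over 0.1 in 10 of 15 pairs), so the numbers were not taken to pair them. With 5 numbers to choose from each time, the correlation was highest with the own number for 9 of 15. That is a hint of pairing from the data and not from the design. The block left the 23 and 8 calls for glutamine and the 13 and 8 for EIPA among the 40 other clock genes at those counts. TPM holds no counts, so what depth limits could not be judged.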
